A study of Rattus norvegicus with 192 samples.

Results

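The 9 genes described here encode enzymes of peroxisomal beta-oxidation and 2 proteins that go with them, and they were picked by symbol from the 17483 genes of the count tables. They are the ketoacyl-CoA thiolases Acaa1a and Acaa1b, the bifunctional enzymes Ehhadh and Hsd17b4, the auxiliary enzymes Ech1, Eci2 and Decr2, and the peroxisome proteins Pex11a and Cat. Catalase (Cat) and Pex11a are not beta-oxidation enzymes: catalase breaks down the hydrogen peroxide that the pathway makes, and Pex11a is a membrane protein of peroxisome division. RNA was measured in liver, thyroid, hypothalamus and pituitary of wild-type adult rats of the Crl:CD(SD) stock by 3' bulk RNA barcoding, in which each sample is tagged with a barcode during reverse transcription and reads come from the 3' ends of polyadenylated transcripts. The rats were gavaged daily for 7 days, between postnatal days 56 and 62. One group received the perfluorinated surfactant PFOS at 3 mg per kg body weight, and the combination group received PFOS at the same dose together with the antibiotic vancomycin at 8 mg per kg. Another group received vancomycin alone at 8 mg per kg, and the vehicle group received corn oil. Each tissue had 12 libraries per treatment, and libraries under 100000 counts were left out, which kept 178 of 192. In liver 8 PFOS, 10 combination, 10 vancomycin and 9 vehicle libraries were kept.

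Peroxisomes shorten very-long-chain and branched fatty acids and bile acid intermediates that mitochondria cannot start on. The first step of a cycle makes a double bond and hydrogen peroxide, a bifunctional enzyme then hydrates and dehydrogenates the product, and a thiolase cuts off acetyl-CoA, while isomerases and a reductase prepare unsaturated chains. In rat liver these genes are known targets of the fatty acid receptor PPAR-alpha, whose activators make peroxisomes multiply in rodents.

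Kept liver libraries held between 106742 and 3387946 counts with a median of 481289, so 1 count in a library was worth a large share of the level of a scarce gene. Levels are given as CPM, counts scaled to library size. Hepatocyte markers fixed for the check of the tissue were all detected in liver, 8 of 8 in every treatment. Their summed level was lower in the 2 PFOS groups, with medians of 159136 CPM (132496 to 178814) under PFOS and 158183 CPM (122723 to 172268) under the combination, against 185884 CPM (174745 to 200841) under vancomycin and 180347 CPM (165168 to 197896) under vehicle. All 6 thyrocyte markers were also detected in every liver group, with summed levels of 885 to 2274 CPM under PFOS, 932 to 2626 CPM under the combination, 839 to 1221 CPM under vancomycin and 892 to 2998 CPM under vehicle. Liver and thyroid were on 1 plate, and thyroglobulin (Tg) averaged in liver 2.08% of its thyroid level. Of the vehicle livers, 5 carried a well barcode with an unusual number of G and C bases, and no kept liver library of another treatment did. On the plates every treatment of a tissue had a row to itself, so a row effect and a treatment effect cannot be told apart. The part of these features in the results was not tested, except where a value without them is given.

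PFOS raised 3 of the 8 members that passed the count filter in liver, in the contrast of libraries with PFOS against libraries without it (18 against 19, the mean of the effects without and with vancomycin). These were Acaa1b, Ech1 and Acaa1a, and no member fell. Over all genes tested in that contrast, 3.6% were called in either direction and 2.15% were called higher. The 8 members had a median log2 fold change of 0.49, and all 3250 genes tested had one of -0.01. Acaa1b passed the count filter only through its libraries with PFOS, since its highest levels without PFOS were 9.37 CPM (vehicle) and 14.8 CPM (vancomycin). The count of 3 of 8 and the median of the members thus include a gene admitted by the groups where it was high. Called means a Benjamini-Hochberg adjusted p under 0.05 in edgeR's quasi-likelihood test over all genes tested, and rose and fell are used only of called differences. In these bulk samples fewer cells of a type and less RNA per cell cannot be told apart.

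**Figure D1:**
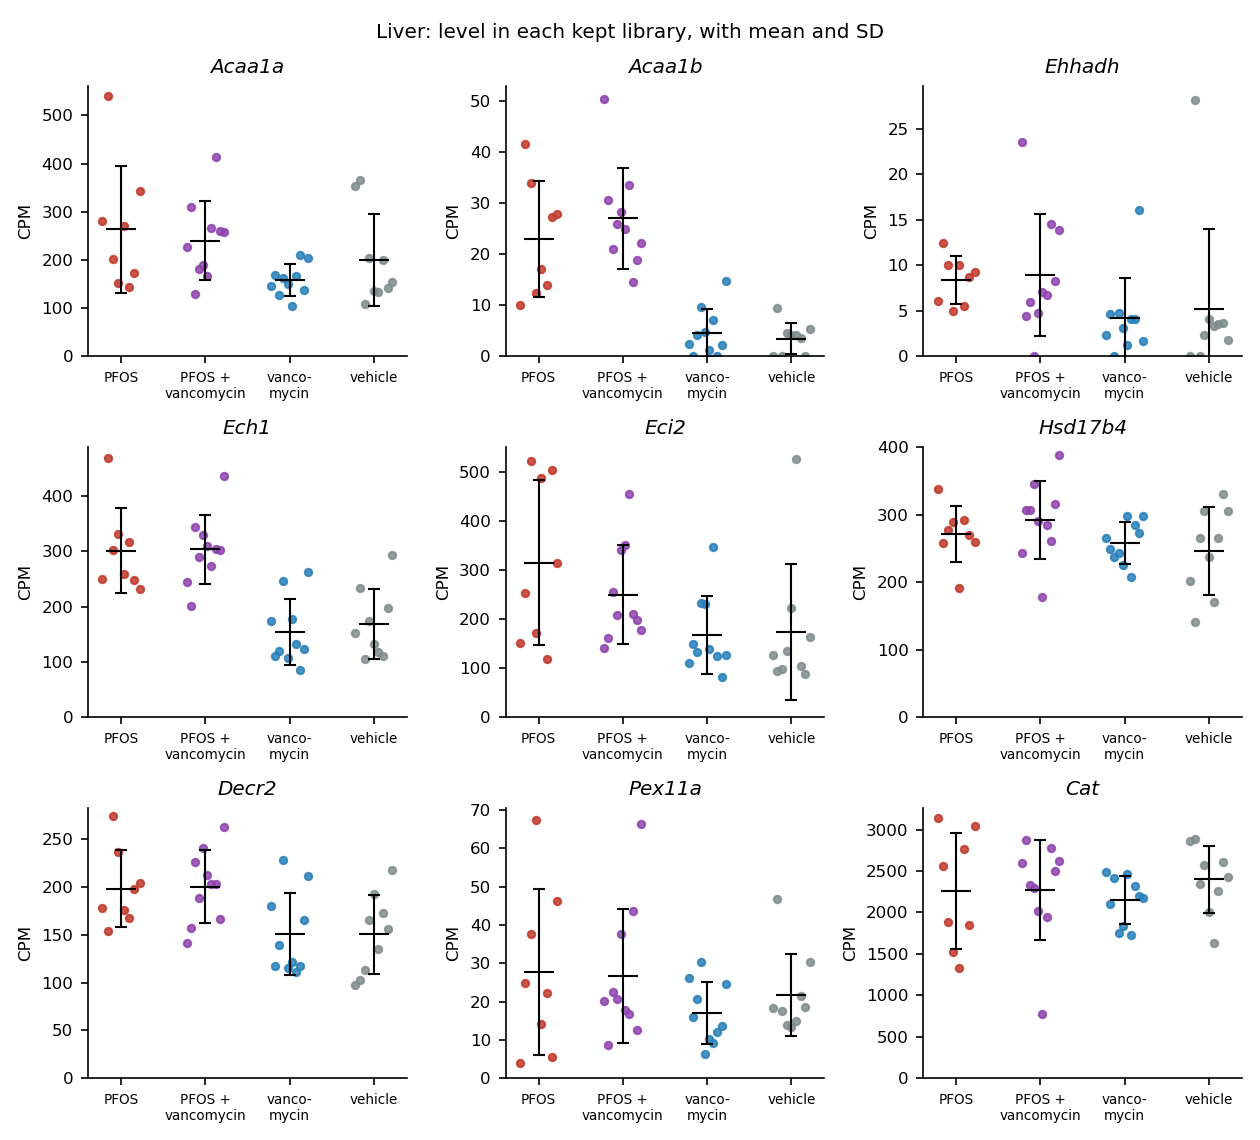
Level in CPM (vertical axes, from 0) of each of the 9 members in every kept liver library by treatment (horizontal axes), with the mean and SD as a bar with whiskers. For Acaa1b every PFOS library lies above every vehicle library, while for Cat the groups overlap, with 1 combination library low at 780.4 CPM.

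The thiolases catalyse the last step of each cycle, and rats carry 2 genes for them. Acaa1b, which encodes the thiolase B form known in rat for its induction by peroxisome proliferators, ran from 10.1 to 41.5 CPM with a median of 22.2 CPM in PFOS livers, against 0 to 9.37 CPM with a median of 4.15 CPM in vehicle livers. With vancomycin it ran from 14.5 to 50.4 CPM with a median of 25.3 CPM in combination livers, against 0 to 14.8 CPM with a median of 3.26 CPM in vancomycin livers. All 8 PFOS libraries were above every vehicle library, and 9 of 10 combination libraries were above every vancomycin library, so the groups with and without PFOS hardly overlapped. The gene had no count in 3 of the 9 vehicle and 2 of the 10 vancomycin libraries.

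The log2 fold change of Acaa1b with PFOS against without it was 2.44, with an SE of 0.28 (edgeR adjusted p = 3.02e-08), and later values are also given as log2 fold change ± SE. It rose by 2.55 ± 0.44 in PFOS against vehicle livers (edgeR adjusted p = 0.000575) and by 2.32 ± 0.35 in combination against vancomycin livers (edgeR adjusted p = 2.17e-05). The PFOS livers held 92 counts of it and the vehicle livers 16, so the fold change rests on few counts. With PFOS against without it, Acaa1b was called in each of the 10 other settings that gave it an adjusted p, with values from 2.26 to 2.82. In that contrast it was also called in each of 37 fits that left out 1 liver library. DESeq2 gave it no adjusted p, and with all libraries kept it fell under the count filter. PFOS against vehicle called no member in a fit of those 2 groups alone or with all libraries kept.

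Acaa1a, the thiolase A form, ran from 145 to 539 CPM with a median of 237 CPM in PFOS livers, against 110 to 365 CPM with a median of 154 CPM in vehicle livers. It ran from 130 to 414 CPM with a median of 243 CPM in combination livers, against 104 to 211 CPM with a median of 157 CPM in vancomycin livers. Of the 8 PFOS libraries 1 was above every vehicle library, and 6 of 10 combination libraries were above every vancomycin library. Acaa1a rose by 0.48 ± 0.14 with PFOS against without it (edgeR adjusted p = 0.0447), close to the threshold. It was not called in PFOS against vehicle (0.44 ± 0.21, edgeR adjusted p = 0.447) or in combination against vancomycin (0.53 ± 0.19, edgeR adjusted p = 0.315), and leaving out any of 16 single liver libraries, controls included, ended the call (edgeR adjusted p up to 0.0913, without PFOS replicate 27). Within treatments the Acaa1a level followed that of thyroglobulin across liver libraries (Pearson r = 0.83, n = 37, points that share a plate), and its r with the log2 library total was -0.45. Without the 4 liver libraries over 2000 CPM of thyrocyte markers its value was 0.47 (edgeR adjusted p = 0.0123), an alternative chosen after seeing the data.

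The 2 thiolase genes lie 196536 bases apart on chromosome 8 in the GRCr8 assembly, with 5 protein-coding genes between them, and how reads of such close relatives were divided is not given in the sources used here. With their counts added, the pair rose by 0.59 with PFOS against without it (edgeR adjusted p = 0.00845). The 95% confidence interval of the fold change was 1.87 to 3.00 for Acaa1b and 0.20 to 0.77 for Acaa1a, and the difference between these was not tested. The 250 bases before each start site are printed so that the upstream letters of these close relatives can be set side by side. They come from RefSeq on GRCr8, chr8:127759570-127759819 on the minus strand and chr8:127957231-127957480 on the plus strand. The start site is that of the first entry of each gene. The whole gene range is 127956126 to 127966348 for Acaa1a, so its printed stretch lies within the gene. For Acaa1b the range is 127750771 to 127759589, and the printed stretch overlaps its end.
Acaa1b: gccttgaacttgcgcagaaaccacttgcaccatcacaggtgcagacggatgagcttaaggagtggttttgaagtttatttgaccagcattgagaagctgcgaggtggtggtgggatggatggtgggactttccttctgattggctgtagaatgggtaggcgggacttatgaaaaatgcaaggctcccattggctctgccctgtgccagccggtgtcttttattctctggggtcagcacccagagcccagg
Acaa1a: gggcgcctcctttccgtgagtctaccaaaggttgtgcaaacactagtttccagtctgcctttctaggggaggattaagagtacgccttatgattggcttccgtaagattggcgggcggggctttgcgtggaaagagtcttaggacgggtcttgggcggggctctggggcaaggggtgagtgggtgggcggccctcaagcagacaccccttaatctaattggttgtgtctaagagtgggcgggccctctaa
The aligned upstream sequences were identical at 128 of 219 positions, or 58.4%, and the other pairs among the 8 members with an entry ranged from 54.3% to 67.0%. The letters searched on both strands were the nuclear receptor core motif AGGTCA, its direct repeat AGGTCANAGGTCA, which contains it, a relaxed form AGGNCANAGGNCA, and the CCAAT box. A search for the TATA box used the letters TATAAA. Neither of the sequences printed above holds the core motif, a repeat or the TATA box. The CCAAT box lies in Acaa1b on the opposite strand at positions -112 to -108 and -63 to -59 counted from the start site, and in Acaa1a on that strand at -159 to -155, -144 to -140 and -34 to -30. This box was present in 34% of 33465 RefSeq upstream sequences of this length. Acaa1b has 5 CpG dinucleotides and Acaa1a has 11, and the median of all is 5.

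Ech1 encodes a dienoyl-CoA isomerase of peroxisomes and mitochondria that reshapes unsaturated chains. Its level ran from 232 to 469 CPM with a median of 280 CPM in PFOS livers, against 106 to 293 CPM with a median of 152 CPM in vehicle livers. It ran from 201 to 436 CPM with a median of 303 CPM in combination livers, against 85.2 to 262 CPM with a median of 128 CPM in vancomycin livers. Of the 8 PFOS libraries 4 were above every vehicle library, and 8 of 10 combination libraries were above every vancomycin library, so the ranges overlapped in part.

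Ech1 rose by 0.89 ± 0.13 with PFOS against without it (edgeR adjusted p = 9.76e-06). It rose by 0.85 ± 0.20 in PFOS against vehicle livers (edgeR adjusted p = 0.0191) and by 0.93 ± 0.18 in combination against vancomycin livers (edgeR adjusted p = 0.00151). The call against vehicle held in 7 of 14 other settings. It was lost without vehicle replicate 3 (0.80, edgeR adjusted p = 0.0553), without PFOS replicate 27 (0.78, edgeR adjusted p = 0.0590) and without the vehicle libraries of unusual barcode GC (0.74, edgeR adjusted p = 0.562), while PFOS present against absent remained called without those libraries (0.84, edgeR adjusted p = 0.00121). With libraries of at least 500000 counts alone, PFOS present against absent gave 0.74 and was not called (edgeR adjusted p = 0.1003).

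Eci2 encodes an enoyl-CoA isomerase that moves double bonds into reach of the pathway. Its level ran from 120 to 522 CPM with a median of 284 CPM in PFOS livers, against 89.1 to 527 CPM with a median of 128 CPM in vehicle livers. It ran from 141 to 456 CPM with a median of 210 CPM in combination livers, against 82.5 to 348 CPM with a median of 136 CPM in vancomycin livers. One vehicle library at 526.5 CPM, replicate 7, lay above all PFOS libraries, and the next highest vehicle library was at 223 CPM. Eci2 was not called with PFOS against without it (0.67 ± 0.25, edgeR adjusted p = 0.127). Without vehicle replicate 7 it was called in that contrast (0.92, edgeR adjusted p = 0.00994) and in PFOS against vehicle (1.30, edgeR adjusted p = 0.0372). With all kept libraries it was called with PFOS against without it by voom (0.74, adjusted p = 0.0411) and with well column as a factor (0.76, edgeR adjusted p = 0.0353).

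Decr2 encodes the peroxisomal dienoyl-CoA reductase. It ran from 154 to 274 CPM with a median of 188 CPM in PFOS livers, against 97.6 to 218 CPM with a median of 156 CPM in vehicle livers. All 8 PFOS libraries were above the vehicle mean, and 2 were above the highest vehicle library. The difference with PFOS against without it was 0.37 ± 0.12 (edgeR adjusted p = 0.0640), and it was called in 3 of 13 other settings (lowest adjusted p = 0.0291).

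The bifunctional enzymes carry the middle of the cycle, Ehhadh for straight chains and Hsd17b4 for branched chains and bile acid intermediates. Ehhadh was too scarce for the count filter, with 34 counts in PFOS, 73 in combination, 22 in vancomycin and 15 in vehicle livers. Its level ran from 4.99 to 12.4 CPM with a median of 8.996 CPM in PFOS livers, against 0 to 28.1 CPM with a median of 3.34 CPM in vehicle livers. Of the 8 PFOS libraries 7 were above the vehicle mean. The highest vehicle library, of 106742 counts in all, was above every one of them. Without the filter its difference with PFOS against without it was 1.15 ± 0.33 (edgeR adjusted p = 0.0941).

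Hsd17b4 averaged 272 ± 41.3 CPM in PFOS livers (SD, n = 8) and 247 ± 65.1 CPM in vehicle livers (SD, n = 9). It averaged 292 ± 57.3 CPM in combination livers and 258 ± 30.7 CPM in vancomycin livers (SD, n = 10 each). The 4 groups overlapped throughout. The difference with PFOS against without it was 0.13 ± 0.10 (95% confidence interval -0.07 to 0.33, edgeR adjusted p = 0.560), an interval that does not include the size of the Ech1 change.

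Pex11a, the peroxisome division protein, ran from 4.05 to 67.3 CPM with a median of 23.6 CPM in PFOS livers, against 13.5 to 46.8 CPM with a median of 18.3 CPM in vehicle livers. The PFOS range covered the whole vehicle range. Its difference with PFOS against without it was 0.49 ± 0.28 (edgeR adjusted p = 0.373).

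Catalase averaged 2262 ± 702 CPM in PFOS livers (SD, n = 8) and 2399 ± 401 CPM in vehicle livers (SD, n = 9). It averaged 2273 ± 605 CPM in combination livers and 2149 ± 286 CPM in vancomycin livers (SD, n = 10 each). The groups overlapped throughout, and the difference with PFOS against without it was -0.04 ± 0.11 (95% confidence interval -0.26 to 0.19, edgeR adjusted p = 0.914).

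Hsd17b4 and Cat are shown as the 2 of 8 members with a RefSeq entry whose upstream sequence holds the core motif AGGTCA, printed in capitals. They lie at chr18:45515177-45515426 on the plus strand and chr3:110329527-110329776 on the minus strand of GRCr8.
Hsd17b4: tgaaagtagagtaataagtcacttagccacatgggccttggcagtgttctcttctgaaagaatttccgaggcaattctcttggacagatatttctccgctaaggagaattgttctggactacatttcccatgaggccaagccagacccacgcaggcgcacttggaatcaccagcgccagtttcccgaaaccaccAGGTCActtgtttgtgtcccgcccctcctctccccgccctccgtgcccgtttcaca
Catalase gene: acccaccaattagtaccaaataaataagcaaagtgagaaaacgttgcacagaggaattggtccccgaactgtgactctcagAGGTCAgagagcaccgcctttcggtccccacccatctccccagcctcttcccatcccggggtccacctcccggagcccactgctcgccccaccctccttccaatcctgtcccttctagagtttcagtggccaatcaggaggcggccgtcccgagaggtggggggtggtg
The core motif lies at -56 to -51 in Hsd17b4 and at -169 to -164 in Cat, and it was present in 14.1% of all 33465 upstream sequences. No member held AGGTCANAGGTCA, which was in 0.0508% of all, or AGGNCANAGGNCA, which was in 0.368%. Neither Hsd17b4 nor Cat was called under PFOS. A match of letters is a description of the sequence and not a site of binding.

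**Figure D2:**
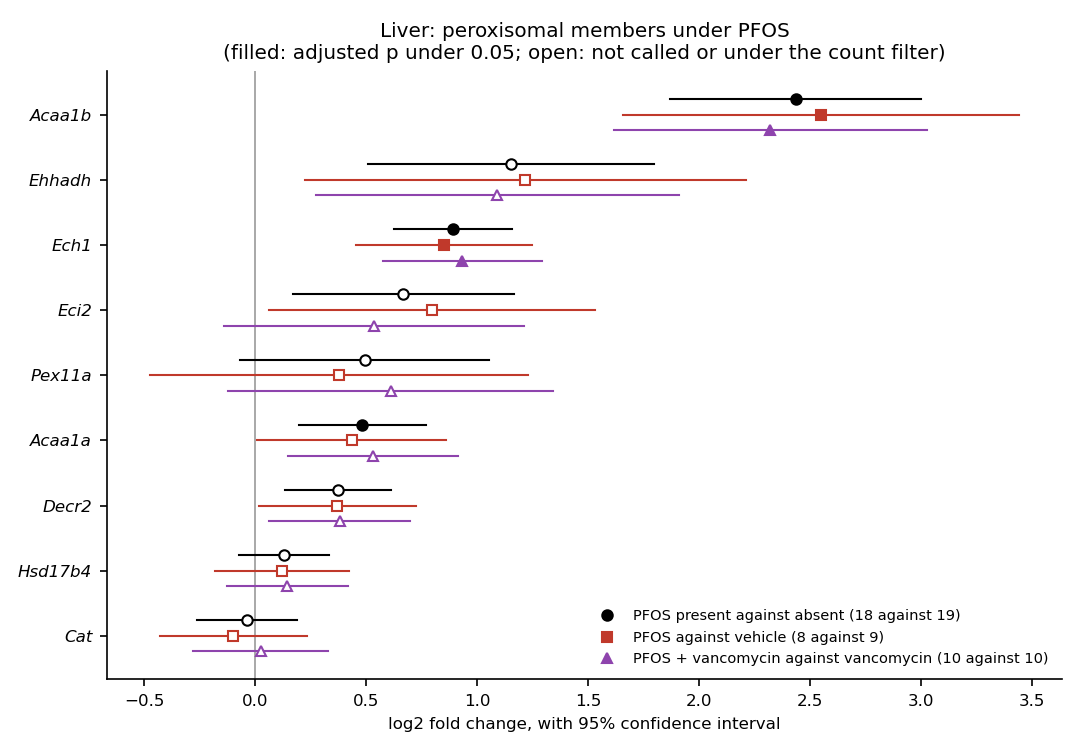
log2 fold change (horizontal axis, with 95% confidence interval) of each member in liver for PFOS present against absent, for PFOS against vehicle and for the combination against vancomycin. Acaa1b lies at 2.44, 2.55 and 2.32, Ech1 near 0.9, and the intervals of Hsd17b4 and Cat span 0 in all 3 contrasts.

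No member was called under vancomycin alone. In vancomycin against vehicle livers edgeR called 0 of 8 members and 0 of 3250 genes, 0 members had an unadjusted p under 0.05, and 0 were called in any of 14 other settings, DESeq2 and limma voom among them. The difference of Acaa1b was 0.49 (95% confidence interval -0.55 to 1.52) and that of Ech1 was -0.07 (-0.45 to 0.31). In combination against PFOS livers the differences were 0.26 for Acaa1b (-0.36 to 0.88) and 0.02 for Ech1 (-0.36 to 0.39). No member was called there and 0 had an unadjusted p under 0.05, where 0 of 3250 genes were called. The test of whether the PFOS effect differed with vancomycin gave -0.23 for Acaa1b (-1.38 to 0.93) and 0.08 for Ech1 (-0.45 to 0.62), both at an edgeR adjusted p = 0.9997. That test also called 0 of 3250 genes. PFOS against vehicle called 0.831% of all genes, combination against vancomycin 0.923% and combination against vehicle 0.769%, and Acaa1b and Ech1 were the 2 members called in each. Against vehicle, the combination raised Acaa1b by 2.81 ± 0.41 (edgeR adjusted p = 1.63e-05) and Ech1 by 0.87 ± 0.19 (edgeR adjusted p = 0.00905). This Ech1 call held in 11 of 14 other settings, and it was lost with libraries of at least 500000 counts (0.84, edgeR adjusted p = 0.479), with barcode GC as a covariate (0.77, edgeR adjusted p = 0.387) and without the vehicle libraries of unusual barcode GC (0.76, edgeR adjusted p = 0.482). PFOS and the combination were set against the same vehicle livers here.

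Other genes of the pathway give the setting of these changes. Of 16 other tested enzymes of peroxisomal beta-oxidation, 2 rose and 0 fell with PFOS against without it in liver, with a median log2 fold change of 0.20, where 2.15% of all genes were called higher. They were Crot, a carnitine acyltransferase that passes shortened chains on (0.78 ± 0.20, edgeR adjusted p = 0.0178), and Amacr, a racemase for branched chains (0.54 ± 0.15, edgeR adjusted p = 0.0337). Of 22 other peroxisomal enzymes and membrane proteins 1 rose and 0 fell, Ephx2, the soluble epoxide hydrolase (1.22 ± 0.25, edgeR adjusted p = 0.00220), so that 1 of 22 was near the share over all genes, and the median was 0.05. None of the 7 tested peroxins and division proteins was called, 1 of them had an unadjusted p under 0.05, and the median was -0.05.

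Of 23 tested PPAR-alpha targets outside peroxisomes, 7 rose and 0 fell, with a median of 0.20, where 2.15% of all genes were called higher. The 4 with the smallest p were Cyp4a1, a fatty acid omega-hydroxylase with close paralogs (1.07 ± 0.14, edgeR adjusted p = 8.75e-07), Eci1, the mitochondrial enoyl-CoA isomerase (1.06 ± 0.16, edgeR adjusted p = 9.76e-06), Vnn1, a pantetheinase (1.10 ± 0.19, edgeR adjusted p = 0.000210), and Cd36, a fatty acid transporter (1.13 ± 0.27, edgeR adjusted p = 0.0118). Of 4 tested genes for PPAR-alpha, its partners and coregulators none was called, 2 had an unadjusted p under 0.05, and the median was 0.07.

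Ppara, the gene for PPAR-alpha, was named after its values were seen and did not pass the count filter. It had 11 counts in PFOS, 15 in combination, 13 in vancomycin and 8 in vehicle livers.

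The genes whose levels were most like those of the called members over the 37 liver libraries were taken among the genes of at least 50 mean CPM. For Acaa1b they were Eci1 (Pearson r = 0.80 of log2(CPM + 1)), Ech1 (0.76) and the cytochrome P450 gene Cyp2b2 (0.76). For Ech1 they were Eci1 (0.82), Cyp2b2 (0.75) and Cyp2c6v1 (0.74). For Acaa1a they were the ATP synthase subunit gene Atp5f1b (0.82), the chloride channel gene Clic3 (0.81) and Tg (0.81). After removal of the treatment means, r for Eci1 was 0.54 with Acaa1b and 0.60 with Ech1, whereas for Cyp2b2 it was 0.04 and 0.17. The 3 genes most like Acaa1a stayed at 0.83 to 0.87. All points share libraries and depth.

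Set across tissues in vehicle rats, every member but Ech1 had its highest mean CPM in liver, by a small margin for Eci2 and Ehhadh. Ehhadh, under the count filter, averaged 5.22 ± 8.72 CPM in liver (SD, n = 9) and 4.17 ± 2.39 CPM in hypothalamus (SD, n = 12). Its medians there were 3.34 and 3.65 CPM. Pex11a, also under the filter, averaged 21.7 ± 10.7 CPM in liver and 10.9 ± 3.55 CPM in thyroid (SD, n = 9 and 12). All 6 members that passed the filter were called higher in liver than in thyroid, in hypothalamus and in pituitary with the trimmed mean of M values (TMM) scaling. With library totals alone as the scaling, Ech1 was instead lower in liver than in thyroid and hypothalamus, and Eci2 was not called against thyroid. Over all genes 26.6%, 32.9% and 30.9% were called higher in liver in these comparisons, and 64.8%, 75.4% and 70.5% in either direction. Catalase averaged 2399 ± 401 CPM in liver (SD, n = 9), 398 ± 63.6 CPM in thyroid, 98.6 ± 17.3 CPM in hypothalamus and 46.2 ± 13.2 CPM in pituitary (SD, n = 12 each). Libraries of liver and thyroid did not overlap, nor did those of thyroid and hypothalamus, where 76.1% of all genes were called. With TMM scaling the difference was 3.63 ± 0.11 for liver against thyroid (edgeR adjusted p = 4.14e-38). Its size depends on the scaling, as library totals alone moved the median of all genes by -1.12 in that comparison. Also with TMM scaling, catalase was lower in pituitary than in hypothalamus (-0.54 ± 0.13, edgeR adjusted p = 0.000190), where 68.2% of all genes were called.

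Acaa1a followed the same order, at 200 ± 95.7 CPM in liver (SD, n = 9), 18.7 ± 5.54 CPM in thyroid, 13.9 ± 5.69 CPM in hypothalamus and 5.07 ± 2.51 CPM in pituitary (SD, n = 12 each). The liver libraries were all above the highest of the other tissues, while thyroid and hypothalamus overlapped. Albumin, a liver transcript, averaged in thyroid 0.825% of its liver level over the kept libraries of all treatments. In vehicle libraries alone, the thyroid levels of Acaa1a and Cat were 9.37% and 16.6% of their liver levels. Decr2 was at 150 ± 41.5 CPM in liver (SD, n = 9), 43.9 ± 11.3 CPM in thyroid, 20.2 ± 5.72 CPM in hypothalamus and 29.7 ± 7.33 CPM in pituitary (SD, n = 12 each). With TMM scaling Decr2 was not called between thyroid and pituitary (0.26 ± 0.18, edgeR adjusted p = 0.204), where 68.3% of all genes were called. Its median CPM was nevertheless higher in thyroid (43.7, range 21.5 to 60.3) than in pituitary (29.3, range 19.2 to 45.7). Hsd17b4 was at 247 ± 65.1 CPM in liver (SD, n = 9), 68.2 ± 10.4 CPM in thyroid, 95.1 ± 12.3 CPM in hypothalamus and 56.5 ± 11.6 CPM in pituitary (SD, n = 12 each), and with TMM scaling edgeR called none of its differences among thyroid, hypothalamus and pituitary. The pituitary libraries, at 40.4 to 79.0 CPM, nevertheless all lay below the hypothalamus libraries, at 79.5 to 121 CPM. With library totals alone Hsd17b4 was called lower in pituitary than in hypothalamus (-0.78, edgeR adjusted p = 8.04e-08), lower in thyroid than in hypothalamus (-0.47, edgeR adjusted p = 0.000134) and higher in thyroid than in pituitary (0.31, edgeR adjusted p = 0.0280).

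Nearly all Acaa1b counts came from liver. Over all treatments it had 352 counts in 37 liver libraries, 2 counts in 46 thyroid libraries, 10 counts in 47 hypothalamus libraries and 0 counts in 48 pituitary libraries. The 0 counts in pituitary allow a level of up to 0.107 CPM (3 counts of the summed total, counting error only).

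Ech1 and Eci2 were not set apart by tissue in the same way. Ech1 averaged 169 ± 63.1 CPM in liver (SD, n = 9), 199 ± 17.9 CPM in thyroid, 202 ± 25.9 CPM in hypothalamus and 127 ± 17.3 CPM in pituitary (SD, n = 12 each). With the trimmed mean of M values (TMM) scaling it was called higher in liver than in thyroid (0.83 ± 0.12, edgeR adjusted p = 9.13e-09) and in hypothalamus (1.08 ± 0.12, edgeR adjusted p = 1.53e-12). With library totals alone it was lower in liver than in both, by -0.26 (edgeR adjusted p = 0.0418) and -0.28 (edgeR adjusted p = 0.0266). Library totals alone, an alternative chosen after seeing the data, moved the median of all genes by -1.12 for liver against thyroid, by -1.39 against hypothalamus and by -0.83 against pituitary. Eci2 averaged 174 ± 139 CPM in liver (SD, n = 9), 165 ± 54.7 CPM in thyroid, 86.1 ± 14.5 CPM in hypothalamus and 30.1 ± 10.99 CPM in pituitary (SD, n = 12 each). Liver and thyroid libraries overlapped, and the call between them (1.33 ± 0.25, edgeR adjusted p = 1.09e-05) was lost with library totals alone (0.18, edgeR adjusted p = 0.456). Liver and thyroid were on 1 plate and hypothalamus and pituitary on the other, so plate and tissue cannot be told apart in comparisons of liver with hypothalamus or pituitary.

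**Figure D3:**
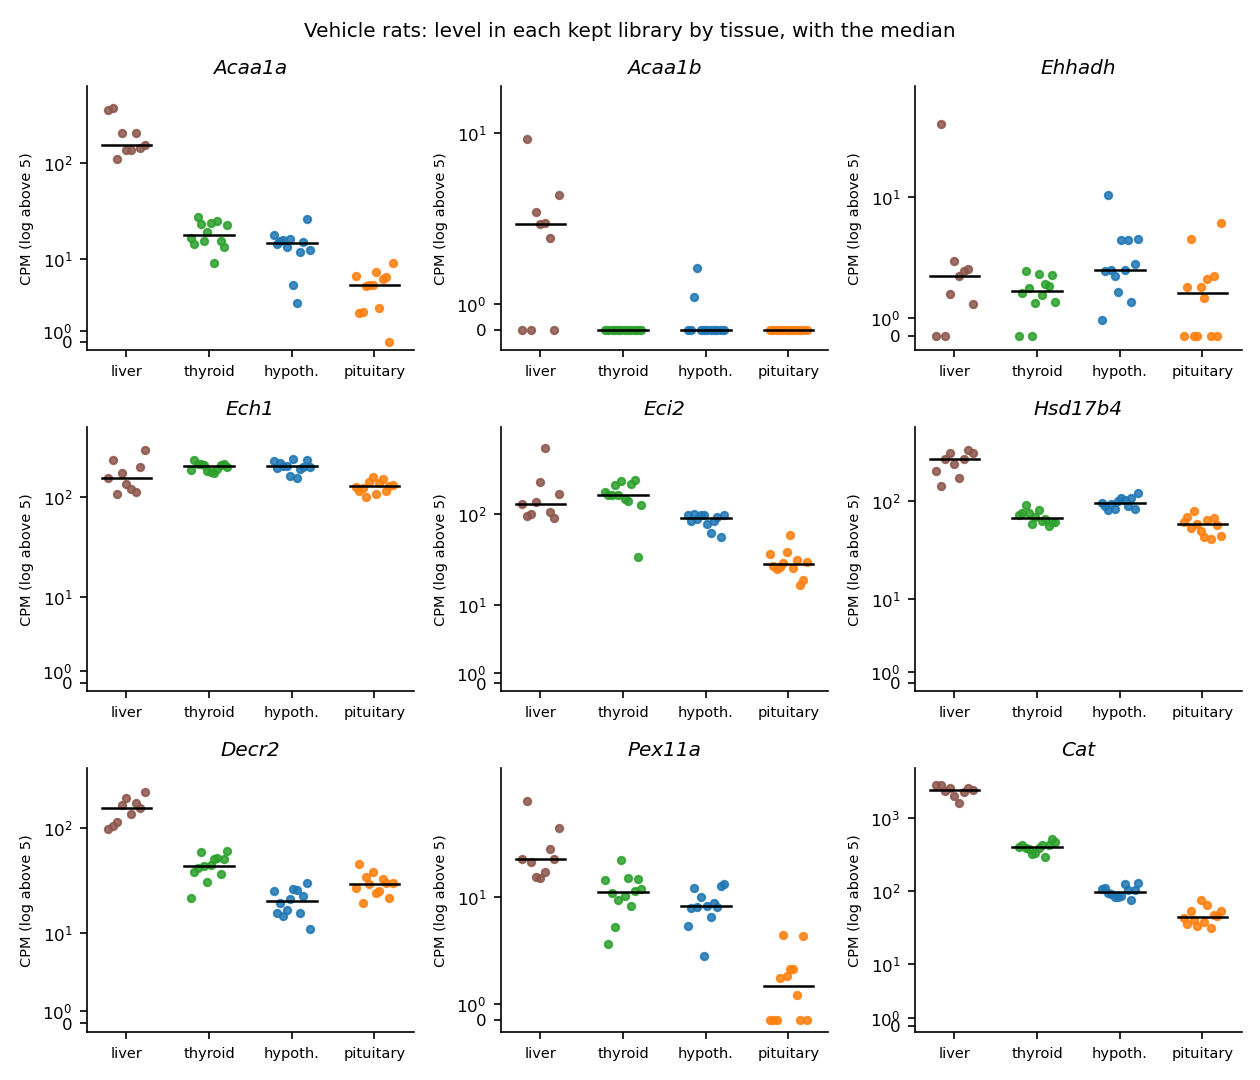
Level in CPM (vertical axes, linear up to 5 and log above) of each member in every kept vehicle library by tissue (horizontal axes), with the median as a bar. Cat steps down between liver, thyroid, hypothalamus and pituitary, whereas the Ech1 levels of liver, thyroid and hypothalamus overlap.

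Outside liver PFOS raised no tested member. In hypothalamus, with 23 libraries with PFOS and 24 without, 7 members were tested and Eci2 was the one called, lower, where 20.5% of all genes were called and 11.4% called lower. A call of 1 of 7 was thus near the share over all genes in hypothalamus. Acaa1a was called there as well, also lower, with DESeq2 (-0.46, adjusted p = 0.0454), voom (-0.52, adjusted p = 0.0236) and well column as a factor (-0.48, adjusted p = 0.0402). In thyroid, with 22 and 24 libraries, 6 members were tested and Eci2 was again the one called, lower, where 13.1% of all genes were called and 7.8% called lower. There too 1 of 6 was near the share called in either direction. In pituitary, with 24 libraries each, 5 members were tested and none was called, 1 had an unadjusted p under 0.05, and 1.44% of all genes were called. The medians over the tested members were -0.05 in thyroid, 0.00 in hypothalamus and 0.04 in pituitary, and over all genes 0.02, 0.01 and -0.00.

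Eci2 in thyroid averaged 151 ± 41.2 CPM under PFOS (SD, n = 10), 139 ± 45.7 CPM under the combination and 213 ± 72.6 CPM under vancomycin (SD, n = 12 each), and 165 ± 54.7 CPM under vehicle (SD, n = 12). In hypothalamus it averaged 77.2 ± 12.8 CPM under PFOS (SD, n = 12), 65.3 ± 17.1 CPM under the combination (SD, n = 11), 91.4 ± 19.6 CPM under vancomycin and 86.1 ± 14.5 CPM under vehicle (SD, n = 12 each). The groups overlapped in both tissues. With PFOS against without it Eci2 fell by 0.34 ± 0.08 in hypothalamus (edgeR adjusted p = 0.00282) and by 0.43 ± 0.14 in thyroid (edgeR adjusted p = 0.0431). Library totals were lower with PFOS in both tissues, with medians in hypothalamus of 662537 counts under PFOS and 531350 under the combination against 751640 under vancomycin and 875790 under vehicle. With the log2 total as a covariate the difference was -0.17 in hypothalamus (edgeR adjusted p = 0.215) and -0.07 in thyroid (edgeR adjusted p = 0.927), so neither call held. In hypothalamus Eci2 was lower in combination against vancomycin libraries (-0.50 ± 0.12, edgeR adjusted p = 0.00668, 7.91% of all genes called) and in combination against vehicle libraries (-0.40 ± 0.12, edgeR adjusted p = 0.0324, 8.14% called). These calls held in 11 and in 8 of 12 other settings, and with the log2 total as a covariate neither did (edgeR adjusted p = 0.143 and 0.787). It was not called in PFOS against vehicle hypothalamus (-0.18 ± 0.11, edgeR adjusted p = 0.385, 4.44% called). In thyroid it was lower in combination against vancomycin libraries (-0.68 ± 0.20, edgeR adjusted p = 0.0498, 3.26% called), a call that held in 4 of 12 other settings (adjusted p of 0.000588 to 0.649). It was not called in combination against vehicle (-0.33 ± 0.20, edgeR adjusted p = 0.369, 2.95% called) or PFOS against vehicle (-0.17 ± 0.21, edgeR adjusted p = 0.715, 0.0589% called).

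Eci2 levels also moved together in libraries that share a well barcode. Same-numbered libraries carried the same barcode in liver and pituitary and in hypothalamus and thyroid, 48 of 48 numbers each, and different barcodes in every other tissue pair. Within treatments, the Eci2 deviations of same-numbered libraries had r = 0.71 between liver and pituitary (n = 37) and r = 0.68 between hypothalamus and thyroid (n = 45). In the 4 tissue pairs that share a number without a barcode r ran from -0.27 to 0.01. Over all genes of at least 50 mean CPM the median r was 0.23 for liver and pituitary and 0.30 for hypothalamus and thyroid, against -0.03 to 0.03 for the other pairs. Cat had r = 0.34 and 0.48 in the pairs that share a barcode, Ech1 had 0.15 and 0.24, and Acaa1a had 0.01 and 0.17. Libraries that share a barcode could also share depth. Among vehicle libraries, replicate 11 had the lowest total in hypothalamus (502061 counts) and thyroid (299135), with Eci2 deviations of -0.60 and -2.15. Replicate 7 had the highest in liver (1198377) and pituitary (948968), with deviations of 1.85 and 1.02. Over all treatments, the deepest liver library, combination replicate 46 (3387946 counts), had an Eci2 deviation of -0.24. The deepest pituitary library, combination replicate 48 (2804779 counts), had one of 0.82. In liver the r of Eci2 with the log2 total was 0.47. The part of depth in these values was not tested. These are descriptions, and the part of the barcode in the Eci2 differences between treatments was not tested beyond the fits with barcode GC, and the fits without the unusual barcodes. Such barcodes were in 4 combination libraries of hypothalamus and 5 of thyroid, and in no kept library of another treatment there. With barcode GC as a covariate the Eci2 call in hypothalamus for combination against vehicle was lost (-0.42, edgeR adjusted p = 0.0787), as was that in thyroid for combination against vancomycin (-0.77, edgeR adjusted p = 0.0739). Without those libraries both were also not called (-0.41, edgeR adjusted p = 0.0880, and -0.79, edgeR adjusted p = 0.0816). With PFOS against without it Eci2 remained called in both tissues under both settings.

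**Figure D4:**
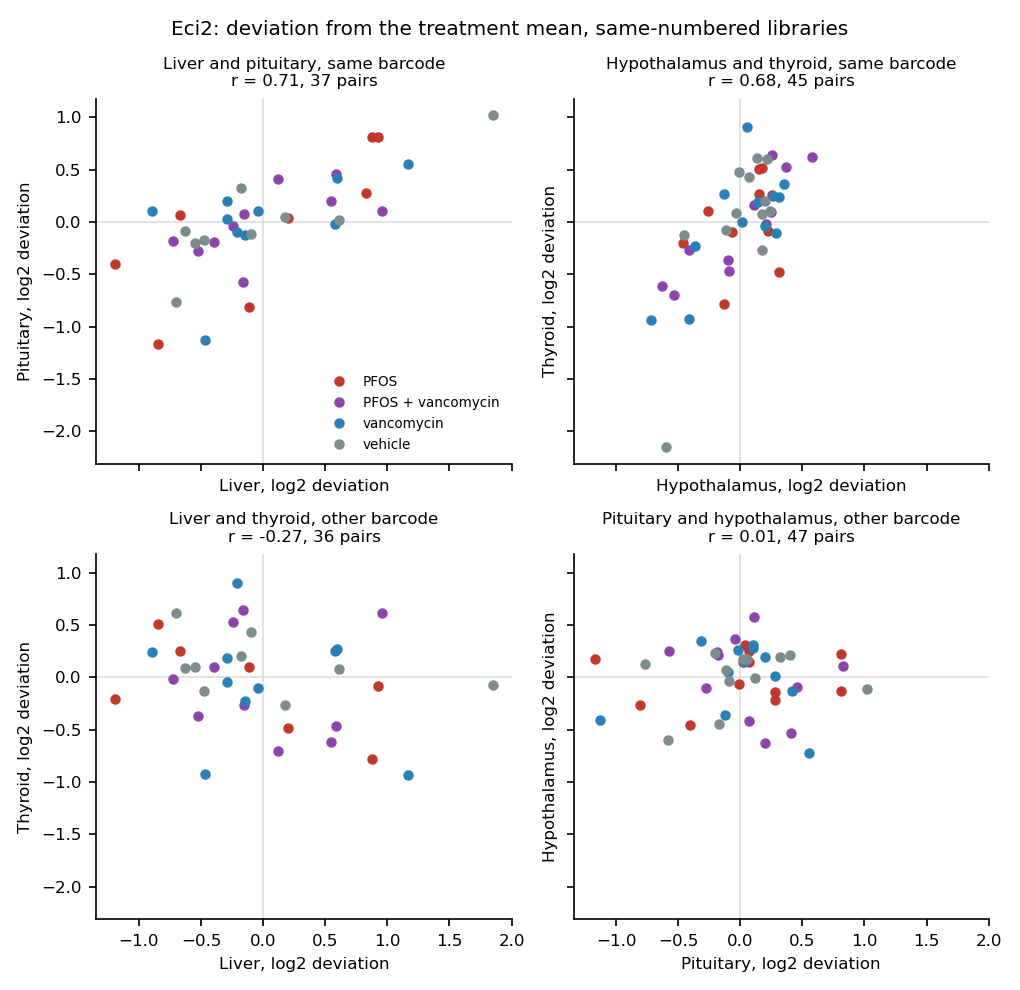
Deviation of the Eci2 level, log2(CPM + 1), from the mean of its tissue and treatment in same-numbered libraries of 2 tissues (1 point per number, coloured by treatment). The points rise together in the upper panels, where both libraries carry the same barcode (r = 0.71 and 0.68), and not in the lower panels (r = -0.27 and 0.01).

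The difference of the PFOS effect between tissues was tested in a model of both tissues. Ech1 responded more in liver than in thyroid (difference of log2 fold changes 0.87 ± 0.14, edgeR adjusted p = 3.25e-05), in hypothalamus (0.97 ± 0.14, edgeR adjusted p = 9.03e-07) and in pituitary (0.79 ± 0.15, edgeR adjusted p = 0.00279). Eci2 differed for liver minus thyroid (1.10 ± 0.29, edgeR adjusted p = 0.0133) and liver minus hypothalamus (0.999 ± 0.268, edgeR adjusted p = 0.0127), and Acaa1a for liver minus hypothalamus (0.95 ± 0.22, edgeR adjusted p = 0.00202). Of 8 tested members 2, 3 and 1 were called, where 5.77%, 6.53% and 0.2% of all genes were called against thyroid, hypothalamus and pituitary. With library totals of at least 500000 counts alone, Ech1 was no longer called against thyroid (0.58, edgeR adjusted p = 0.0741) or pituitary (0.63, edgeR adjusted p = 0.410). With the replicate number as a block, Eci2 was no longer called against thyroid. For Acaa1b no useful test of this difference was possible, since its counts outside liver were at or near 0.

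**Figure D5:**
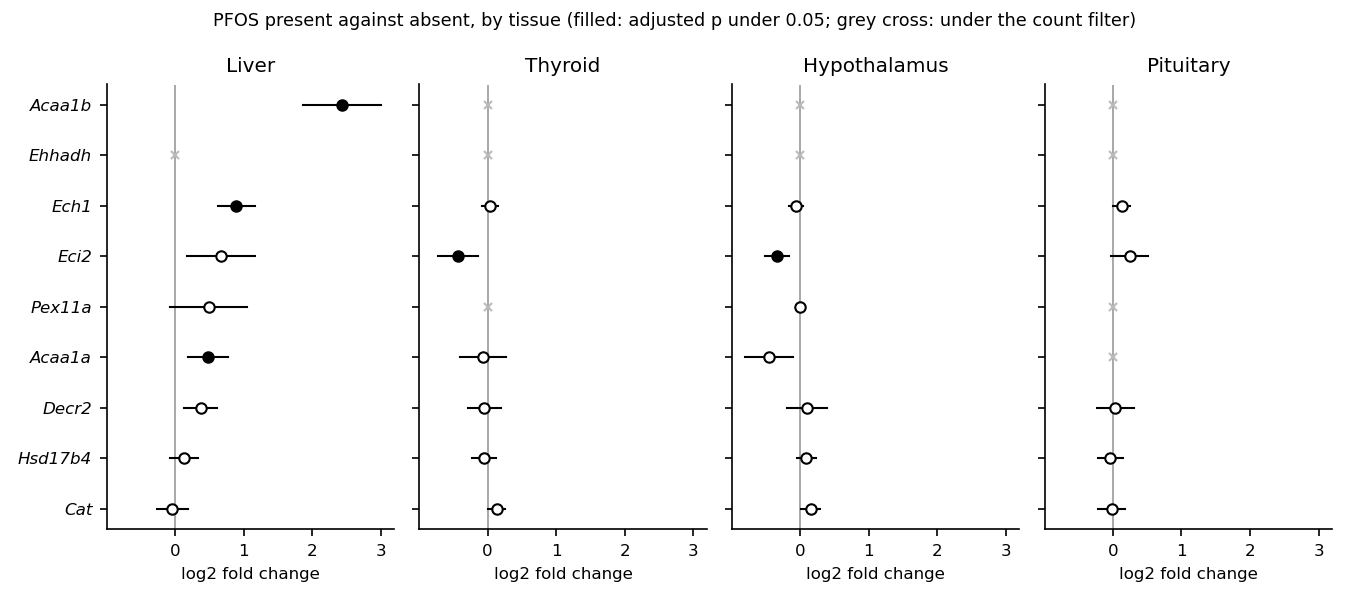
log2 fold change with 95% confidence interval (horizontal axes) of each member for PFOS present against absent in liver, thyroid, hypothalamus and pituitary. Ech1 lies at 0.89 in liver and between -0.07 and 0.13 in the other tissues, and Eci2 lies below 0 in thyroid and hypothalamus. The hypothalamic Pex11a value is drawn without an interval because its fold change was too close to 0 for one to be computed.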

How the data were processed

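Counts per gene were deposited by the authors as whole numbers for 192 libraries in 2 tables. Library totals differed and no normalization was apparent, so they were used as deposited. The submitters' processing notes name BWA 0.7.4.4 and the build rn6 and give no role for either, and how molecular identifiers were handled is not given in the sources used here. Groups follow the sample titles. Nothing in the labels ties replicate numbers to animals, so p-values measure the spread between these samples. Same-numbered hypothalamus and thyroid libraries, which share barcodes, deviated together over genes (r above 0.1 in 45 of 45 pairs), and the number as a block changed no call between these 2 tissues in vehicle rats.

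Each tissue was fitted in R 4.3.3 with edgeR 4.0.16 on all genes, with 4 group means, filterByExpr at a minimum count of 10, TMM factors and the robust quasi-likelihood F test. Values for genes under the filter come from the same fit without it. Benjamini-Hochberg adjustment ran over all genes tested, at a threshold of 0.05. Tissues were compared in 1 model of the vehicle libraries and in models of 2 tissues. SE is the absolute log2 fold change divided by the square root of F. Alternatives included DESeq2 1.42.0 and limma 3.58.1 (voom). The code was tested on simulated data. The 9 members, the gene lists and the tests were chosen with earlier results of these data known. Named genes were all members, up to 4 called genes per list by p, and the 3 genes most alike each member called in liver. All 9 symbols, and 15578 of the 17483 gene names, matched a RefSeq table of GRCr8 directly, which gave positions.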

Additional observations from a re-analysis of the deposited data

Results flagged for a closer look

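Of 44 combinations of a member with a liver or thyroid group of 4 to 10 libraries, 7 had a library far from the others, and chance alone flags about 1 in 20 such groups. The highest libraries were combination replicate 37 for Acaa1b at 50.4 CPM, PFOS replicate 27 for Ech1 at 469 CPM, vancomycin replicate 23 for Ehhadh at 16.05 CPM, and in the vehicle group replicate 2 for Ehhadh at 28.1 CPM and for Pex11a at 46.8 CPM and replicate 7 for Eci2 at 526.5 CPM. The lowest was combination replicate 42 for Cat at 780.4 CPM.

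The PFOS effect differed between liver and another tissue for 3 members by edgeR's test of the difference. For Ech1 the difference of log2 fold changes was 0.87 for liver minus thyroid, 0.97 for liver minus hypothalamus and 0.79 for liver minus pituitary. For Eci2 it was 1.10 against thyroid and 0.999 against hypothalamus, and for Acaa1a it was 0.95 against hypothalamus.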

How the results depend on the processing

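Counts of called members moved in 48 recomputed values, by over 1.5 times or between no call and some. In 450 they stayed equal or moved by no more than 1.5 times. The 450 include comparisons with no member called in either fit, so they do not measure how stable the calls were. Causes were not tested unless the setting removes libraries. In liver, PFOS present against absent called 3 members, 1 with libraries of at least 500000 counts or with all libraries kept, 5 with well column as a factor (Eci2 and Decr2 added), and 2 to 4 when single libraries were left out. PFOS against vehicle called 2, 0 in a fit of the 2 groups alone or with all libraries kept, and 1 with voom, at 500000 counts, with barcode GC as a covariate, without unusual barcode GC, with the thiolases added or without libraries over 2000 CPM of thyrocyte markers (1 to 3 with single libraries left out). Combination against vancomycin called 2, and 1 with 2 groups alone, 500000 counts, all libraries or the thiolases added (2 with any single library left out). Combination against vehicle called 2, and 1 in those settings and with either barcode setting.

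In hypothalamus, PFOS present against absent called 1 member, 2 with DESeq2, voom or well column (Acaa1a, lower), and 0 with the log2 total. Combination against vancomycin called 0 with the log2 total, and combination against vehicle 0 with that, at 500000 counts or with either barcode setting. In thyroid, PFOS present against absent called 0 without the filter, with well column, with the log2 total or with totals alone. Combination against vancomycin there called 0 in those settings, with 2 groups alone, with all libraries and with either barcode setting, and combination against vehicle called 1 at 500000 counts. With totals alone Ech1 was reversed for liver against hypothalamus (-0.28) and liver against thyroid (-0.26). For thyroid against hypothalamus its value changed sign but was very small (-0.0195).

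At 500000 counts liver minus pituitary called 0 and liver minus thyroid 1. With the replicate number as a block, liver minus thyroid called 1 (Eci2 1.13, edgeR adjusted p = 0.102), liver minus hypothalamus 3 and liver minus pituitary 1. Whether numbers pair samples was checked by correlation of deviations over genes: r was above 0.1 in 15 of 37, 30 of 37 and 16 of 36 same-numbered pairs of liver with hypothalamus, pituitary and thyroid, so not in every pair of liver with any of these tissues, although liver and pituitary numbers share barcodes. Depth limits Acaa1b, Ehhadh and Pex11a most. DESeq2 gave Acaa1b no adjusted p (log2 fold change 2.50), and with all libraries kept it fell under the filter.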

Other observations

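Within treatments the liver levels of some members moved with each other over the 37 libraries, which share depth and plate. Pearson r of log2(CPM + 1) was 0.51 for Ech1 with Pex11a, 0.47 for Ech1 with Decr2, 0.49 for Hsd17b4 with Cat and 0.41 for Acaa1b with Ech1. Eci2 ran the other way, with r = -0.60 with Cat and -0.43 with Hsd17b4, and its r with the log2 library total was 0.47.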
